A study of Mus musculus with 8 samples.

Results

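The nuclear-encoded respiratory chain genes are the genes of the cell nucleus whose proteins build the 5 protein complexes of oxidative phosphorylation in the inner mitochondrial membrane, with cytochrome c and a few assembly factors. They were chosen by symbol, as protein-coding genes whose name starts with Nduf, Uqcr, Atp5 or Cox4 to Cox8, plus Sdha, Sdhb, Sdhc, Sdhd and Cycs, with at least 15 counts summed over all libraries. Of the 53342 genes in the files, 85 met this rule. The members were 36 genes of complex I, 4 of complex II, 8 of complex III, 13 of complex IV, 16 of complex V, 1 cytochrome c gene and 7 assembly factors of complex I. Ndufa4 carries a complex I name and was placed with complex IV, to which its protein is now assigned.

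Messenger RNA was measured in cultured macrophages from the infarcted hearts of wild type C57BL/6 mice of 8 weeks, taken 3 days after myocardial infarction. Cells were sorted by the antigen Ly6C on their surface into a subset with much of it (Ly6Chi) and one with little (Ly6Clo). Each was kept for 24 hours without or with interleukin 21 (IL-21, a T cell cytokine, at 100 ng/mL), and all 4 groups shared a medium with FCS, 2-mercaptoethanol and antibiotics. Each group had 2 libraries, made from messenger RNA 3' ends, and cells lacking the IL-21 receptor (il21r-/-), which the study also names, were not analysed here. The labels number the 2 libraries of a group but do not say whether they came from separate mice or cultures, so a p-value below reflects the spread of these samples alone, and that spread may be technical.

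Complex I (NADH dehydrogenase) and complex II (succinate dehydrogenase, which also works in the citric acid cycle) pass electrons from NADH and succinate to ubiquinone. Complex III hands them to cytochrome c, complex IV (cytochrome c oxidase) hands them to oxygen, and complex V (ATP synthase) uses the proton gradient built on the way to make ATP. In macrophages this machinery is known for its link to activation state, with inflammatory activation favouring glycolysis and alternative activation favouring oxidative metabolism. The subunits of complexes I, III, IV and V that mitochondrial DNA encodes were not analysed here.

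The proximal promoters of these genes are known for binding sites of nuclear respiratory factor 1 (NRF1), of ETS factors such as NRF2/GABP and of YY1. In the RefSeq table of promoters (GRCm38.p6, 250 bases before to 50 bases after the transcription start), 72 of the 85 members matched. For each of these factors 1 promoter is shown, from an abundant member with a single promoter window that holds the motif. The capitals mark a motif on either strand. In Atp5k (complex V subunit e, chr5:108434350-108434649, minus strand) they mark overlapping NRF1 matches, the first beginning at position -50 from the start, and an ETS match beginning at 13. In Cox6b1 (complex IV subunit 6b, chr7:30626065-30626364, minus strand) they mark an ETS match beginning at -28, and in Ndufb8 (an accessory subunit of complex I, chr19:44555393-44555692, minus strand) a YY1 match beginning at 39, within the transcript.
Atp5k: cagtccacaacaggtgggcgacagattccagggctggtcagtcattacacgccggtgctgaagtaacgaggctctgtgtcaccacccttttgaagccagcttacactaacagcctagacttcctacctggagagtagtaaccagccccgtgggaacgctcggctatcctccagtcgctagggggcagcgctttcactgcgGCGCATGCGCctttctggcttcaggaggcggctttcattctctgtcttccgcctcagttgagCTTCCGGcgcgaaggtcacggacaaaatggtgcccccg
Cox6b1: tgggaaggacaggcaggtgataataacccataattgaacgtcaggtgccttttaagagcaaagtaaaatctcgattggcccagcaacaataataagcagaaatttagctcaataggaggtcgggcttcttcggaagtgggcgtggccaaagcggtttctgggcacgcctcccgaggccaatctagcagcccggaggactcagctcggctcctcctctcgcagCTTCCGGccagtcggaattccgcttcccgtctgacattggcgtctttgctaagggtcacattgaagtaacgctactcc
Ndufb8: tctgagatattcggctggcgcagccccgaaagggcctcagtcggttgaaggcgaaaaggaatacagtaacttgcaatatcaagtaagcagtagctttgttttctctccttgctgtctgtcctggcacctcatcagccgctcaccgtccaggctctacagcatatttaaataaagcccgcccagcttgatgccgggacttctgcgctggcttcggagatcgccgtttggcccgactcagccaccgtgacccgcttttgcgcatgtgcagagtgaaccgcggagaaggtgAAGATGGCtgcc

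The letters were searched on both strands, and a gene was counted once if any of its promoter windows held them. The background was all 27025 genes in the table, whether or not they were expressed in these cells. The NRF1 letters GCGCATGC stood in 12 of the 72 matched members (16.7%) and in 3.05% of the genes in the table. The ETS letters CCGGAAG stood in 17 members (23.6%) against 9.93% of the genes in the table. The YY1 letters AAGATGGC stood in 11 members (15.3%) against 3.19%. At least one of these 3 motifs was found in 33 members (45.8%) and in 14.9% of the genes in the table. The Sp1 letters GGGCGG were about as frequent in members (32, or 44.4%) as in the genes of the table (38.2%). The TATA letters TATAAA stood in 5 members (6.94%) against 15.7%. YY1 matches were in 7 of 32 complex I genes, 3 of 14 complex V genes and 1 of 6 assembly factors. They were in 0 of 3 genes of complex II, 0 of 5 of complex III and 0 of 11 of complex IV. These numbers are small, and a difference between complexes was not tested. A match is a run of letters and was not tested as a site, and no member is described as regulated from it.

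The members held 1.36% of all deposited counts (34260 of 2511550). By library their share ran from 1.15% (95% exact binomial interval 1.11 to 1.19%) in Ly6Chi with IL-21 number 2 to 1.43% (1.38 to 1.47%) in Ly6Chi without IL-21 number 1. These intervals, like every limit based on counts here, cover counting error only. Library totals were 224329 to 483593 counts, and a count of 3 in one library corresponded to 6.58 to 14.9 CPM (counts scaled to a common library size over the genes tested, by TMM). Levels are given in CPM. A 3' end library gives about one read start per transcript whatever its length, so CPM was not divided by gene length when genes were set side by side.

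Of the 85 members, 76 had enough counts for the test and held 99.1% of the members' counts. Their mean levels over the 8 libraries ran from 33.2 to 805 CPM, with a median of 133 CPM. The members left out of the test were Ndufs8 of complex I, Cox7a1 of complex IV, Atp5l and Atp5s of complex V, and the assembly factors Ndufaf2, Ndufaf4, Ndufaf5, Ndufaf6 and Ndufaf7. Just inside the threshold of 15 counts were Atp5s (15.4 counts in all), Cox7a1 (17) and Ndufaf7 (21.5), and just outside were Ndufaf1 (10), Atp5g2 (9.46) and Cox6a2 (9). In all, 9 protein-coding genes of the named families fell below the threshold, 5 of them listed at 0.

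The deposited counts of a gene can include reads shared with near-identical copies. Within the last 400 bases of their transcripts, 30 of the 85 members shared at least one run of 60 bases with another gene. The shared part was at least 50% for Atp5l (77.7%), Ndufs3 (60.7%) and Atp5h (53.6%), so the values of these 3 are uncertain. It was 20% or more for Ndufs5 (39.1%), Cox7c (37.2%), Atp5g1 (36.6%), Uqcrb (35.8%), Atp5o (33.1%), Ndufa12 (32.1%), Ndufab1 (23.1%), Cox6c (21.3%) and Atp5f1 (20.9%). In all, 10 members overlapped a gene on the opposite strand, and use of strand in the counting is not given in the sources used here.

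The markers of the sorted cells were checked first. Of 12 macrophage markers 11 had counts, led by Lyz2, and Itgam was listed at 0 in every library, so a listed 0 cannot be read as absence of the transcript. The 7 Ly6Chi monocyte markers, led by Ly6c2, summed to 938 to 1065 CPM in Ly6Chi and 199.6 to 455 CPM in Ly6Clo. Neutrophil markers summed to 1403 to 2335 CPM in Ly6Chi and 641 to 1262 CPM in Ly6Clo, mostly from Mmp8 (2826 of 3096 counts), with 6 of 10 detected and Ly6g, Ltf, Ngp and Retnlg at 0. Platelet list genes summed to 2899 to 3760 CPM with and 1712 to 2005 CPM without IL-21, mostly from Pf4, with 3 of 7 detected. Cardiomyocyte markers summed to 5.0 to 172 CPM, highest in Ly6Clo with IL-21 number 1, with 12 of 15 detected and Myh7, Ckm and Actn2 at 0. Fibroblast markers summed to 15.8 to 160.2 CPM, and endothelial markers, mostly Fabp4, to 389 to 859 CPM. Their part in the results below was not tested, and in bulk samples fewer cells of a type and less RNA per cell cannot be told apart.

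The level of each complex varied little over the 8 libraries. Complex I summed to 5702 and 4983 CPM in Ly6Chi without IL-21, 5382 and 4547 CPM in Ly6Chi with IL-21, 5103 and 5501 CPM in Ly6Clo without IL-21, and 5359 and 5307 CPM in Ly6Clo with IL-21. The coefficient of variation over the 8 libraries was 6.79% for complex I, 11.7% for complex II, 6.93% for complex III, 8.17% for complex IV and 5.26% for complex V. Complex II, the smallest group of subunits, summed to 542 to 779.8 CPM, and complex III to 817 to 1023 CPM. Complex IV summed to 2932 to 3773 CPM and complex V to 3573 to 4201 CPM. The library of Ly6Chi with IL-21 number 2 had the lowest sum in complexes I, III, IV and V and in cytochrome c, and was the library with the fewest counts.

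**Figure D1:**
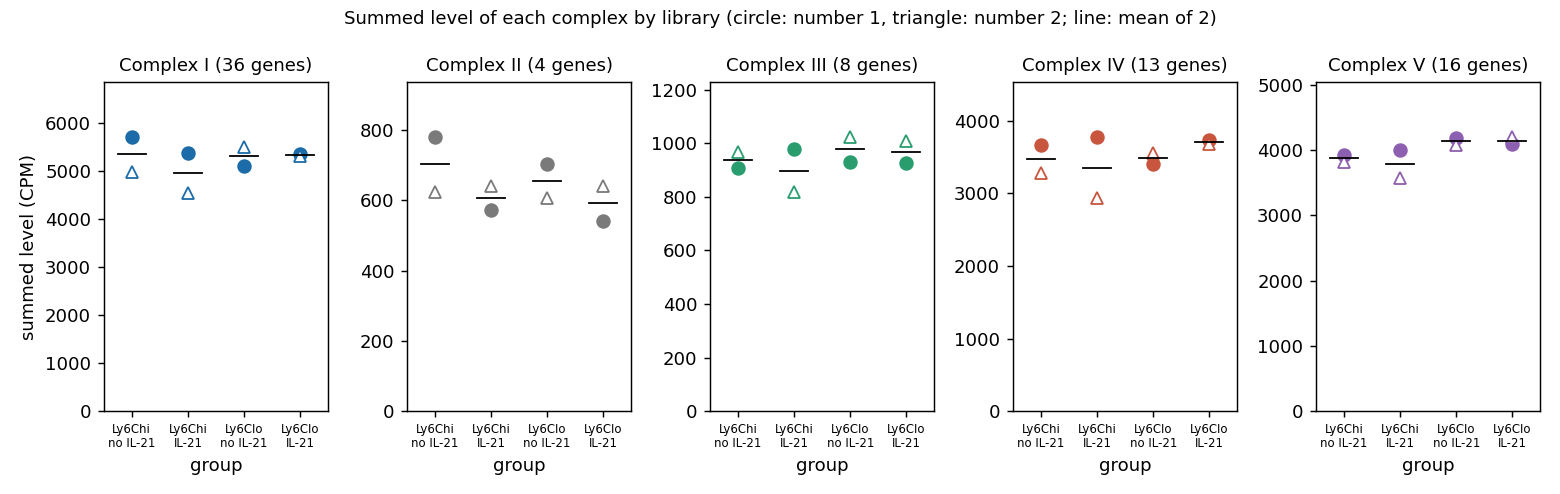
Summed level (CPM, linear axis from 0) of the members of each complex in each library, by group, with filled circles for number 1, open triangles for number 2 and a line at the mean of 2. Complex V is the one of the 5 in which the 4 Ly6Clo libraries (4085 to 4201 CPM) all lie above the 4 Ly6Chi libraries (3573 to 3999.9 CPM).

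The most abundant subunits were small proteins of complexes V, IV and I. Atp5g3, a gene for the c subunit that forms the rotating ring of ATP synthase (chr2:73908447-73911326), stood at 769 and 728 CPM in Ly6Chi without IL-21, 877 and 787 CPM in Ly6Chi with IL-21, 857 and 793 CPM in Ly6Clo without IL-21, and 841 and 789.6 CPM in Ly6Clo with IL-21. Both libraries of Ly6Chi without IL-21 were the lowest, at up to 769 CPM beside 787 CPM in the next library, and the other groups overlapped. How many genes show such an order was not counted. Cox6c, a small membrane subunit of cytochrome c oxidase (chr15:35925886-35938246), had a mean of 787 CPM (SD 66.8, n = 8) and lay between 664 and 871 CPM. Atp5j, coupling factor 6 of the ATP synthase stalk, had 593 CPM (SD 36.3, n = 8). Atp5a1, the alpha subunit of the catalytic head, had 484 CPM (SD 51.0, n = 8).

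In complex I the 3 highest means belonged to accessory subunits of the membrane arm, but the third, Ndufb8, was level with Ndufa5 (281 CPM, SD 59.8). Ndufb3 (chr1:58586384-58595964) had a mean of 586 CPM (SD 70.8), Ndufa1 497 CPM (SD 55.6) and Ndufb8 281 CPM (SD 40.6), each with n = 8. The lowest complex I member was Ndufs8, an iron-sulfur core subunit, at 14.2 CPM (SD 3.37, n = 8), which is near the limit that 3 counts set in one library. In complex IV, Cox7b (382 CPM, SD 66.7) and Cox6b1 (381 CPM, SD 36.4) followed Cox6c.

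The 4 genes of complex II followed the order Sdhb (the iron-sulfur subunit, 257 CPM, SD 31.1), Sdha (the flavoprotein, 193 CPM, SD 30.0) and Sdhc (a membrane anchor, 129.9 CPM, SD 40.6), with Sdhd, the other anchor, lowest at 59.2 CPM. Sdhb lay above Sdhc in every library, and the range of Sdha overlapped both. In complex III the highest were Uqcrb (231 CPM, SD 29.4), Uqcrfs1, the Rieske iron-sulfur protein (134 CPM, SD 23.8), and Uqcrq (123 CPM, SD 13.2), of which the last pair overlapped. Cytochrome c (Cycs) had 78.1 CPM (SD 20.3). Of the assembly factors, Ndufaf8 had 118 CPM (SD 23.6), Ndufaf3 33.2 CPM (SD 13) and Ndufaf4 25.2 CPM (SD 13.7).

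For subunits 4, 6a, 6b, 7b and 8 of complex IV and for NDUFA4, the broadly expressed gene carried nearly all counts. Their alternative genes, known from muscle, testis or other restricted tissues, were at or near 0. Cox4i1 had 404 counts over the 8 libraries and Cox4i2 had 0. Cox6a1 had 793 and the muscle gene Cox6a2 had 9. Cox6b1 had 905 and Cox6b2 had 1. Cox8a had 766, and both Cox8b and Cox8c had 0. Cox7b had 905 and Cox7b2 had 0, and Ndufa4 had 143 and Ndufa4l2 had 0. By counting error alone, a count of 0 over all 8 libraries allows up to 1.29 CPM, which is 3 counts in the pooled libraries. As with Itgam above, a listed 0 cannot be read as absence of the transcript.

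Subunit 7a had 3 genes with counts. Cox7a2 had 831 counts, Cox7a2l, known for joining complexes III and IV into supercomplexes, had 181, and the muscle gene Cox7a1 had 17, between 1 and 4 in every library. For the c subunit of ATP synthase, whose 3 genes encode the same mature protein, Atp5g3 had 1869 counts, Atp5g1 306 and Atp5g2 9.46. Cycs had 183.5 counts and its testis copy Cyct less than 1. The muscle gene Cox6a2 was highest in Ly6Clo with IL-21 number 1, with 5 of its 9 counts, which was also the library with the most cardiomyocyte marker counts. Its part in this level was not tested.

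**Figure D2:**
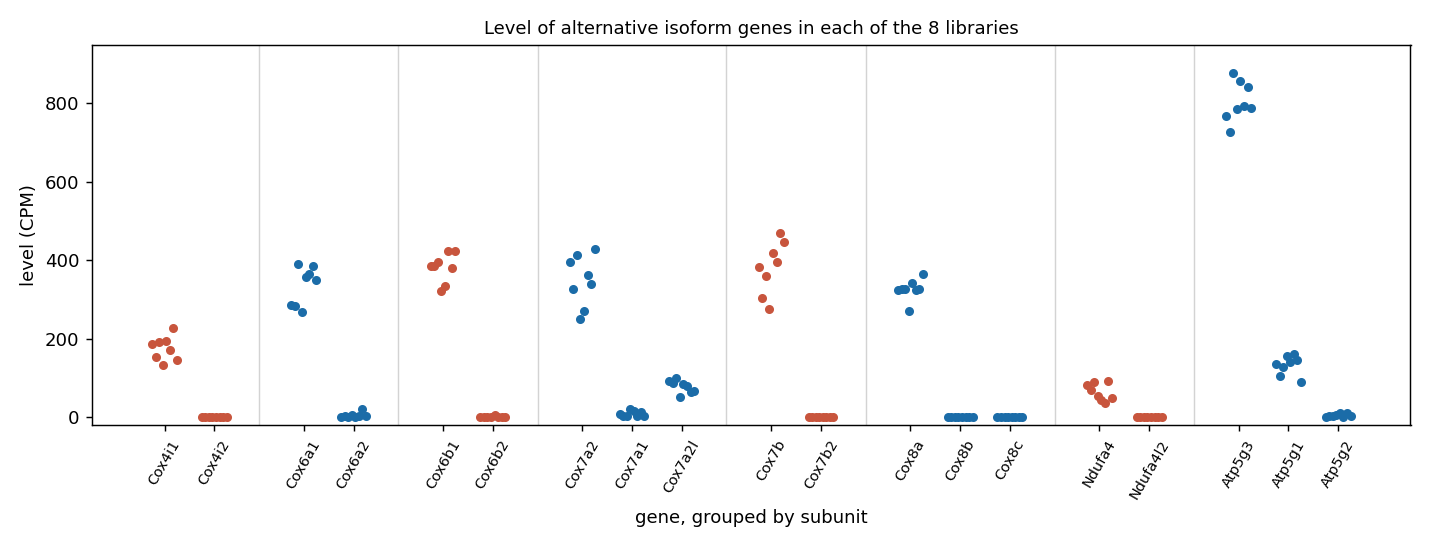
Level (CPM, linear axis) of the alternative genes of 8 subunits, 1 point per library in all 8 libraries, with colour only separating neighbouring subunits. Cox4i1, Cox6a1, Cox6b1, Cox7a2, Cox7b, Cox8a and Atp5g3 stand above the other genes of their subunit in every library, and Cox4i2, Cox7b2, Cox8b, Cox8c and Ndufa4l2 are listed at 0 in every library.

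Taken gene by gene, the members varied over the 8 libraries by more than counting error at the median. Their summed share of the counts also differed between libraries by more than the counting intervals given above. The ratio of the observed variance to the one that counting alone gives had a median of 1.34 for the 76 members (middle 50% from 0.964 to 1.84) and 1.52 for all 5256 genes tested (0.962 to 2.50), at median mean counts of 38 and 22.4. The member with the largest ratio was Sdhc, at 3.37. Between the 2 libraries of a group alone, the median ratio was 1.48 for members and 1.42 for all genes.

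The first question was whether IL-21 changed these genes in either subset. No member was called in Ly6Chi, with edgeR's quasi-likelihood test and an adjusted p under 0.05 (0 of 76), where 0.019% of all genes tested were called. No member was called in Ly6Clo either (0 of 76, against 0.133% of all genes), nor in the effect averaged over both subsets (0 of 76, against 0.171%). DESeq2 and limma-voom also called 0 members in each of the 3. At an unadjusted p under 0.05, 1 member passed in each, against 3.52, 3.52 and 5.33% of all genes. The 95% interval of the averaged effect lay within a 2-fold change either way for 71 of the 76 members, but within single subsets for 51 in Ly6Chi and 56 in Ly6Clo, so smaller changes were not resolved.

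Averaged over the subsets, 32 of 76 members had log2 differences above 0, with a median of -0.03, against 48.9% of all genes and a median of -0.01. By complex, the difference was above 0 for 13 of 35 in complex I, 0 of 4 in complex II, 3 of 8 in complex III, 7 of 12 in complex IV and 7 of 14 in complex V. In complex II the 4 log2 differences lay between -0.26 and -0.14, and 95% intervals of all 4 included 0.

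Ndufs1, the largest iron-sulfur core subunit of complex I's NADH-binding arm (chr1:63143596-63176833), was the member with the smallest p. It stood at 39.4 and 52.8 CPM in Ly6Chi without IL-21 and 69.9 and 76.3 CPM with it, and at 48.2 and 53.9 CPM in Ly6Clo without IL-21 and 68.0 and 80.5 CPM with it. All 4 libraries with IL-21 lay above all 4 without it, which held for 1 of 76 members (2.19% of all genes had all 4 above). The averaged log2 difference was 0.56 (SE 0.24, 95% interval 0.04 to 1.09), and it did not pass after adjustment over all genes (edgeR adjusted p = 0.865).

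The next smallest p above 0 belonged to Ndufv3, an accessory subunit of the same arm, with a log2 difference of 0.38 (SE 0.26). Below 0 were Ndufs3, a core subunit of the ubiquinone-binding arm, at -0.61 (SE 0.34) and Atp5b, the catalytic beta subunit, at -0.25 (SE 0.16). Ndufs3 stood at 61.3 and 25.5 CPM in Ly6Chi without IL-21, 31.6 and 32.4 CPM with it, 53.0 and 52.2 CPM in Ly6Clo without IL-21, and 33.5 and 28.5 CPM with it. Its 2 libraries of Ly6Chi without IL-21 thus lay on either side of all the others, and its counts are uncertain because of the copies named above. The platelet list sum was higher with IL-21 in the same libraries, and its part was not tested.

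**Figure D3:**
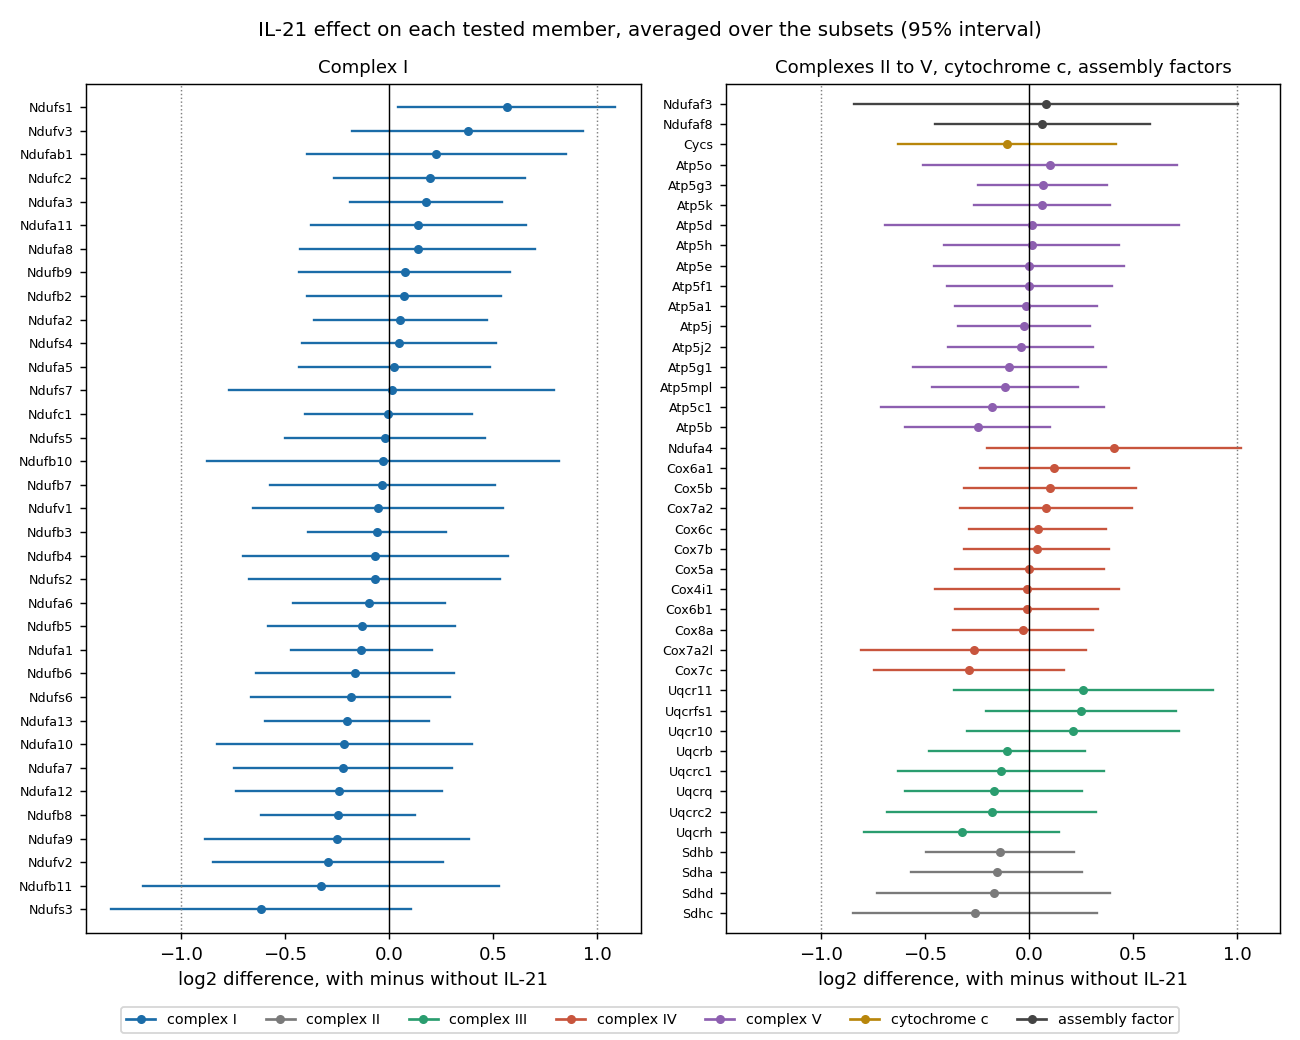
Log2 difference with minus without IL-21, averaged over the subsets, for the 76 tested members, with points for the estimate, bars for the 95% interval and colours for the complex. The dotted lines mark a 2-fold change, and the bar of Ndufs1 alone excludes 0.

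Within Ly6Chi the smallest p belonged to Atp5c1, the gamma subunit of the rotating stalk of ATP synthase. It had 77.9 and 95.3 CPM without and 37.7 and 57.1 CPM with IL-21, a log2 difference of -0.86 (SE 0.37, edgeR adjusted p = 1.0). In Ly6Clo the same gene had 54.0 and 62.5 CPM without and 80.6 and 85.8 CPM with IL-21. The IL-21 effects of both subsets on Atp5c1 differed by 1.38 (SE 0.50, 95% interval 0.31 to 2.44), with an edgeR adjusted p of 1.0. The other low-p members in Ly6Chi were Cox7c, a small subunit of complex IV, at -0.61 (SE 0.31), and, above 0, Ndufs1 at 0.62 (SE 0.37) and Ndufab1, the mitochondrial acyl carrier protein, at 0.60 (SE 0.44).

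In Ly6Clo the smallest p belonged to Uqcr11, a small subunit of complex III, with 32.5 and 52.7 CPM without and 71.9 and 85.4 CPM with IL-21. Its log2 difference was 0.83 (SE 0.36, edgeR adjusted p = 1.0). Ndufa4 followed with 43.6 and 36.2 CPM without and 91.9 and 48.7 CPM with IL-21, a log2 difference of 0.84 (SE 0.41). Below 0 were Ndufs3 at -0.79 (SE 0.45) and Sdhc at -0.55 (SE 0.38). For Ndufa4 the 2 libraries with IL-21 differed from each other by more than the lower one differed from those without.

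For the contrast of the IL-21 effects of both subsets, 0 of 76 members and 0% of all genes were called by edgeR, and 1 member passed at an unadjusted p under 0.05 against 1.75% of all genes (DESeq2 and limma-voom called 0 members). After Atp5c1 came Cycs, which had 82.0 and 119 CPM without and 72.2 and 57.1 CPM with IL-21 in Ly6Chi, and 59.5 and 68.4 CPM without and 73.3 and 92.8 CPM with IL-21 in Ly6Clo. The difference of its 2 effects was 0.99 (SE 0.49). Of all 76 members, 50 were above 0, against 50.9% of all genes. Below 0 were Atp5g1 at -0.62 (SE 0.43) and Ndufab1 at -0.74 (SE 0.58). The 95% interval lay within 2-fold for 30 of 76 members, so this comparison resolved the least.

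One library bore on the direction of the Ly6Chi values. In Ly6Chi, 27 of 76 members had log2 IL-21 differences above 0 (median -0.11), against 50.3% of all genes. Without number 2 of Ly6Chi with IL-21, the count was 44 of 77 and the median 0.06, and without number 1 of the same group it was 12 of 77 and -0.27. Without number 1 of Ly6Chi without IL-21 the count was 38 of 77 and the median -0.01, and without number 2 of that group 19 of 77 and -0.15. Compared library by library within a number, 36 of 76 were above 0 for number 1 and 22 of 76 for number 2. In Ly6Clo the count was 43 of 76 (median 0.02), against 49.2% of all genes, with 40 of 76 for number 1 and 43 of 76 for number 2. The direction over the members in Ly6Chi therefore rested on single libraries.

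The second question was whether Ly6Clo and Ly6Chi macrophages differed in these genes. No member was called by edgeR without IL-21 (0 of 76, against 0.0381% of all genes), with IL-21 (0 of 76, against 0.019%) or averaged over both (0 of 76, against 0.19%). DESeq2 and limma-voom called 0 members too. At an unadjusted p under 0.05, 1, 3 and 3 members passed, against 4.53, 5.27 and 7.78% of all genes. The 95% interval of the averaged difference lay within 2-fold for 69 of 76 members.

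Averaged over IL-21, 51 of 76 members had a log2 difference above 0, Ly6Clo minus Ly6Chi, with a median of 0.07, against 50.4% of all genes. The count was 21 of 35 in complex I, 2 of 4 in complex II, 6 of 8 in complex III, 7 of 12 in complex IV and 13 of 14 in complex V, where Atp5f1, subunit b of the stalk, was the exception at -0.22 (SE 0.18). The median of complex V was 0.15. The members were measured in the same libraries, so their count is not one of replicates. With IL-21, the number 1 libraries summed to 4094 CPM in Ly6Clo and 3999.9 CPM in Ly6Chi for complex V. In that pair Atp5a1, Atp5d, Atp5e, Atp5f1, Atp5g3, Atp5h and Atp5o lay below 0, and the other tested complex V members above. The number 2 libraries with IL-21 summed to 4201 and 3573 CPM. Complex V summed to 4142 CPM in Ly6Clo (SD 60.8, n = 4) and 3831 CPM in Ly6Chi (SD 186, n = 4), and to 3917 CPM in Ly6Chi without its lowest library (SD 87.7, n = 3). The Ly6Chi monocyte and neutrophil list sums were higher in Ly6Chi in the same libraries, and their part was not tested.

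In all, 3 members had all 4 Ly6Clo libraries above all 4 Ly6Chi libraries, which held for 2.64% of all genes (3.95% of the members), and 0 members had all 4 below (2.74% of all genes). Ndufb7, an accessory subunit at the membrane arm of complex I (chr8:83566671-83571626), stood at 98.4, 72.5, 113 and 49.6 CPM in Ly6Chi and 133, 133, 132 and 125 CPM in Ly6Clo. Its log2 difference was 0.62 (SE 0.25, 95% interval 0.09 to 1.16), with an edgeR adjusted p of 0.543. The Ly6Clo libraries lay within a narrow range and the Ly6Chi libraries spread over more than 2-fold.

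Cox7b, a small subunit of complex IV on the X chromosome (chrX:106015700-106022450), stood at 383, 304, 359.6 and 277 CPM in Ly6Chi and 419, 395, 469.7 and 447 CPM in Ly6Clo. Its log2 difference was 0.39 (SE 0.16, edgeR adjusted p = 0.555). The third was Atp5k, with 322, 296, 326 and 309 CPM in Ly6Chi and 363, 359, 375 and 398 CPM in Ly6Clo, named because its groups did not overlap. Atp5b had 246, 219, 190.1 and 186 CPM in Ly6Chi and 272, 293, 246 and 257 CPM in Ly6Clo, a log2 difference of 0.35 (SE 0.16, edgeR adjusted p = 0.637).

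Below 0 the smallest p belonged to Ndufa4, with 82.0, 68.6, 89.7 and 54.6 CPM in Ly6Chi and 43.6, 36.2, 91.9 and 48.7 CPM in Ly6Clo. Its log2 difference was -0.56 (SE 0.29), and its Ly6Clo library with IL-21 number 1 was the highest of all 8. Without IL-21 the difference of Ndufa4 was -0.99 (SE 0.42, 95% interval -1.88 to -0.10, edgeR adjusted p = 0.995). Ndufb3, the most abundant complex I member, followed at -0.23 (SE 0.15), with 672, 640.4, 527 and 692 CPM in Ly6Chi and 567, 515, 543 and 533 CPM in Ly6Clo.

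**Figure D4:**
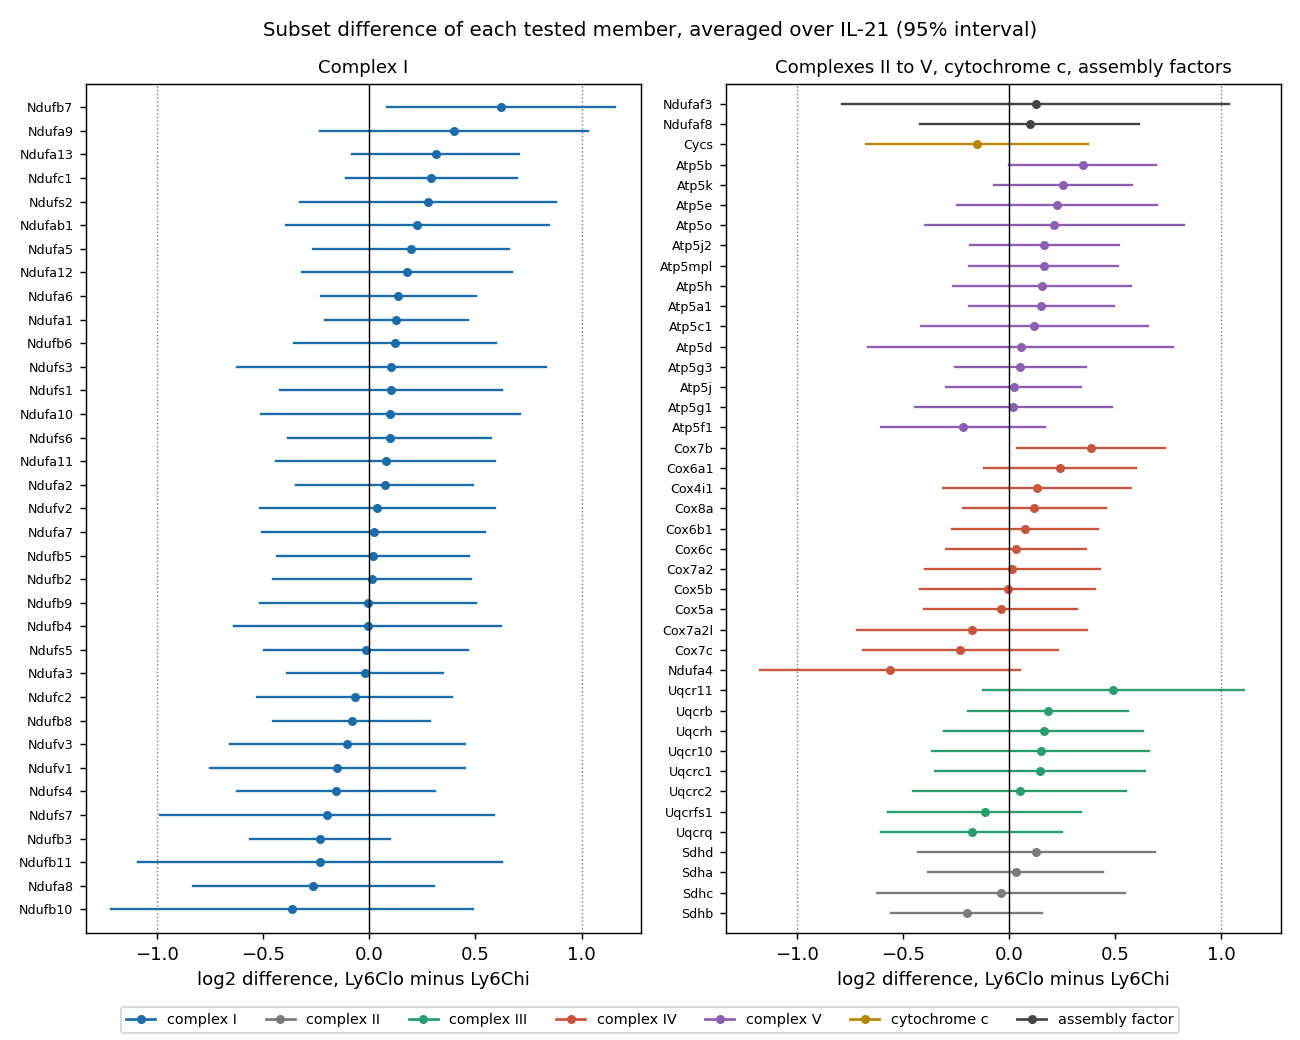
Log2 difference, Ly6Clo minus Ly6Chi, averaged over IL-21, for the 76 tested members, with points for the estimate, bars for the 95% interval and colours for the complex. In complex V 13 of 14 points lie above 0, and the bars of Ndufb7, Cox7b and Atp5b exclude 0 before adjustment. The points come from the same libraries and are not replicates.

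Without IL-21, 40 of 76 members had a log2 difference above 0 (median 0.01), against 50% of all genes, and next to Ndufa4 stood Cycs at -0.65 (SE 0.34), Ndufb7 at 0.63 (SE 0.35) and Cox6a1, the broadly expressed subunit 6a, at 0.34 (SE 0.24). With IL-21, 54 of 76 were above 0 (median 0.13), against 49.4% of all genes. There Uqcr11 had 45.2 and 32.3 CPM in Ly6Chi and 71.9 and 85.4 CPM in Ly6Clo, a log2 difference of 1.05 (SE 0.40, 95% interval 0.20 to 1.91, edgeR adjusted p = 0.913). Cox7b followed at 0.53 (SE 0.23). Below 0 were Atp5f1 at -0.26 (SE 0.26) and Ndufb11, an accessory subunit of complex I, at -0.57 (SE 0.59), and the sign of Ndufb11 turned to 0.35 without number 1 of Ly6Chi with IL-21.

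The direction again rested on a library. Without number 2 of Ly6Chi with IL-21, 37 of 77 members were above 0 in the comparison with IL-21 (median -0.02), and 43 of 77 in the averaged one (median 0.01). Without number 1 of that group the counts were 63 and 57 of 77, with medians of 0.34 and 0.16. Within a number, 37 of 76 members were above 0 with IL-21 for number 1 and 60 of 76 for number 2, and without IL-21 35 and 48 of 76. The IL-21 comparisons and the subset comparisons use the same libraries, so their values are not independent of each other.

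The third question was whether libraries with the same replicate number shared a difference. In a model with group and number, edgeR called 0 of 76 members, against 8.2% of all genes (431), at an adjusted p under 0.05. DESeq2 and limma-voom called 0 members. At an unadjusted p under 0.05, 8 members passed, or 10.5%, against 21.6% of all genes. Of the 76 members, 32 had log2 differences above 0, number 2 minus number 1, with a median of -0.04, against 49.6% of all genes.

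Sdhc, the succinate dehydrogenase anchor (chr1:171127165-171150603), was the member with the smallest p. It stood at 178 CPM in number 1 and 78.2 CPM in number 2 of Ly6Chi without IL-21, at 137 and 124 CPM in Ly6Chi with IL-21, at 199 and 115 CPM in Ly6Clo without IL-21, and at 102 and 105 CPM in Ly6Clo with IL-21. Number 2 was lower in 3 of 4 groups, and by more in both groups without IL-21. Its log2 difference was -0.56 (SE 0.20, 95% interval -0.98 to -0.14), with an edgeR adjusted p of 0.098. Without number 1 of Ly6Chi with IL-21 the difference was -0.69, and without number 2 of that group -0.68. A group's lone library adds nothing to this difference. Both fits therefore rest on the same pairs of the other groups and are not separate results.

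Ndufc2, an accessory subunit of complex I, had 225, 209, 158 and 288 CPM in the number 1 libraries and 179, 154, 150.3 and 163 CPM in the number 2 libraries, lower in number 2 in every group. Its log2 difference was -0.44 (SE 0.17, edgeR adjusted p = 0.106). Above 0 were Ndufv2, an iron-sulfur core subunit, at 0.49 (SE 0.22, edgeR adjusted p = 0.177) and the assembly factor Ndufaf3 at 0.68 (SE 0.38). The 7 assembly factors summed to 229 to 296 CPM in number 2 and 168 to 225 CPM in number 1. The macrophage marker sum was lower in number 2, at 8768 to 9872 CPM against 11382 to 13427 CPM in number 1. Within every group the neutrophil list sum was lower in number 2 too, and the fibroblast list sum was higher. The part of these marker lists in the members' values was not tested.

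Set library against library, with 1 pair per group, the members leaned lower in number 2 in Ly6Chi and slightly higher in Ly6Clo. The members of a pair share its libraries and are not replicates. In Ly6Chi, number 2 was below number 1 for 48 of 76 members without IL-21 (median -0.12) and 55 of 76 with IL-21 (median -0.26), against 48.5 and 50.5% of all genes. In Ly6Clo it was below for 32 of 76 in each group, with medians of 0.06 and 0.09, against 49.2 and 50.6% of all genes. In Ly6Chi with IL-21, number 2 was below number 1 for 12 of 12 complex IV members, 7 of 8 of complex III and 25 of 35 of complex I, but for 8 of 14 of complex V and 1 of 4 of complex II.

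**Figure D5:**
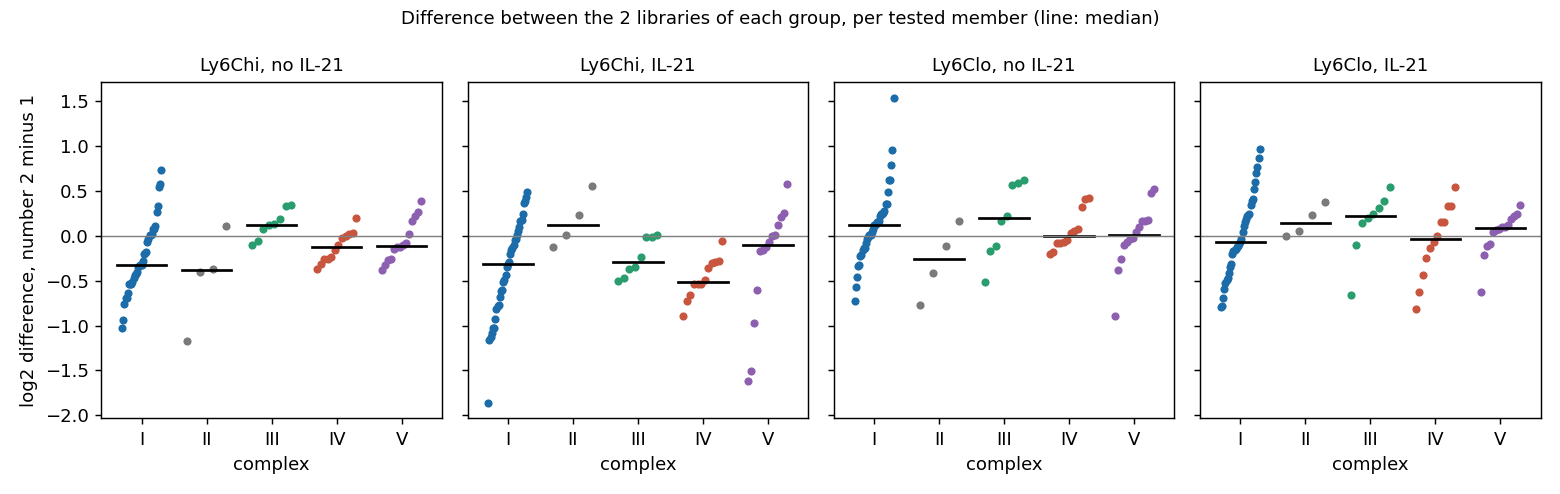
Log2 difference, number 2 minus number 1, of each tested member of the 5 complexes within each group, with 1 point per gene and a line at the median of each complex. In Ly6Chi with IL-21 all 12 complex IV points lie below 0. In both Ly6Clo groups the medians of complexes I, III, IV and V lie between -0.07 and 0.22. The complex II medians in Ly6Clo are -0.26 without and 0.14 with IL-21.

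The difference itself was tested between the subsets, a comparison chosen after seeing the data. By edgeR, 0 of 76 members passed, against 0.59% of all genes, and DESeq2 and limma-voom called 0 members. At an unadjusted p under 0.05, 9 members passed, or 11.8%, against 8.92% of all genes, and DESeq2 had 2. Of the 76 members, 60 had a value above 0 (median 0.22), against 50% of all genes (29 of 35 in complex I, 10 of 12 in complex IV, 6 of 8 in complex III and 9 of 14 in complex V). Ndufa5, an accessory subunit of complex I, had the smallest p. It stood at 324 and 198 CPM in Ly6Chi without IL-21, 346 and 181 CPM in Ly6Chi with IL-21, 285 and 311 CPM in Ly6Clo without IL-21, and 291 and 315 CPM in Ly6Clo with IL-21.

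Number 2 of Ndufa5 was thus the lower one in both Ly6Chi groups and the higher one in both Ly6Clo groups. The subsets' number differences differed by 0.94 (SE 0.25, 95% interval 0.42 to 1.46, edgeR adjusted p = 0.0967). Cox7a2, the main subunit 7a gene, followed, with 395 and 327 CPM in Ly6Chi without IL-21, 414 and 249.9 CPM with it, 269 and 362 CPM in Ly6Clo without IL-21, and 339 and 429.7 CPM with it. Its value was 0.85 (SE 0.24, edgeR adjusted p = 0.111). The smallest p below 0 belonged to Ndufb6, an accessory subunit of complex I, at -0.66 (SE 0.37) and Uqcrfs1 at -0.48 (SE 0.35).

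Other genes of the pathway were taken from lists. Of 23 respiratory chain genes outside the rule, such as Cyc1 (cytochrome c1 of complex III), 10 were tested, as were 15 of 42 further assembly factors, 16 of 18 citric acid cycle genes and 4 of 19 regulators of mitochondrial biogenesis. In both averaged comparisons, IL-21 and subset, edgeR called 0 genes of these 4 lists, against 0.171 and 0.19% of all genes. At an unadjusted p under 0.05 there were 0 for IL-21 and 2 for the subset, against 5.33 and 7.78% of all genes. The calls of limma-voom and DESeq2 were not counted for these lists. For IL-21 the lowest p in the lists were those of Etfb at 0.38 (SE 0.31) and Atpif1 at 0.21 (SE 0.20), of Cmc1 at -0.49 (SE 0.27) and Tmem70 at -0.57 (SE 0.37), of Sucla2 at -0.53 (SE 0.34) and citrate synthase Cs at -0.30 (SE 0.21), and of Yy1 at 0.38 (SE 0.24) and Ppard at 0.47 (SE 0.31).

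For the subset difference, Atpif1, the inhibitor protein of ATP synthase, stood at 0.51 (SE 0.20, edgeR adjusted p = 0.530) and Etfb, a subunit of the electron transfer flavoprotein, at 0.42 (SE 0.31). Ogdh, a subunit of the 2-oxoglutarate dehydrogenase complex, stood at -0.89 (SE 0.33, edgeR adjusted p = 0.530) and Pdha1, of pyruvate dehydrogenase, at 0.44 (SE 0.28). Uqcc3 and Tmem126b, both assembly factors, stood at 0.42 (SE 0.31) and 0.34 (SE 0.27), and the regulators Ppard and Nfe2l2 at -0.58 (SE 0.31) and 0.20 (SE 0.23).

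By replicate number 2 genes of these lists passed, where 8.2% of all genes did. Cox14, an assembly factor of complex IV, was higher in number 2 by 0.60 on the log2 scale (SE 0.18, edgeR adjusted p = 0.0313), and Nfe2l2, a regulator of antioxidant genes, was lower, at -0.56 (SE 0.16, edgeR adjusted p = 0.0318). Cox17, a copper chaperone of complex IV, stood at 0.46 (SE 0.17), Cyc1 at -0.76 (SE 0.36), Etfb at -0.47 (SE 0.28), Pdha1 at -0.55 (SE 0.22), Pdhb at 0.61 (SE 0.29) and Ppard at 0.27 (SE 0.30), none of which passed.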

How the data were processed

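Each deposited table gives 1 expected count per Ensembl gene, an estimate with fractions, and is called raw per the file headers. Libraries used a QuantSeq 3' kit with its UMI module, per the labels' protocols. The submitters' processing notes name mm10 and, with no version, DESeq2. Not given in the sources used here were the aligner, counter, annotation release and use of UMIs or strand.

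Identifiers were matched to GENCODE M21 (53237 of 53342). The values were rounded and fitted with edgeR 4.0.16 (limma 3.58.1, DESeq2 1.42.0, R 4.3.3) over all 8 libraries, with TMM scaling, filterByExpr (minimum count 10, minimum total 15), 4 group means and robust quasi-likelihood F tests. P-values were adjusted by Benjamini-Hochberg over all 5256 tested genes. Residual degrees of freedom were 4, median prior degrees of freedom 10.6 and the biological coefficient of variation 0.201. Library totals were 224329 to 483593 counts. Differences in CPM were taken on the log2 scale with a prior count of 2 where libraries were compared singly.

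Members and gene lists were chosen with earlier results of these data known. Named genes are the 3 most abundant per complex, the 2 smallest p per direction and comparison, alternative isoforms, and the 3 genes nearest the threshold on each side. Ndufs8, Ndufb11, Sdhd and Atp5k were also named for the reasons given. Alternatives were other tools, scaling, filters, unrounded values, a replicate block and leaving out each library.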

Additional observations from a re-analysis of the deposited data

How the results depend on the processing

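The count of members called was 0 in the 7 comparisons of IL-21 and subset under every alternative run: DESeq2, limma-voom, RLE size factors, no filter on low counts, a mean count of at least 20, unrounded values, the replicate block, each library left out in turn, and, where the comparison is of 2 groups, only those 2 groups. By replicate number the count did not stay the same when each library was left out, because of Sdhc. Sdhc stood at -0.69 without number 1 and at -0.68 without number 2 of Ly6Chi with IL-21. These 2 fits rest on the same pairs of the other groups and are not separate results. With CPM of all deposited counts the mean level moved to 4846 CPM for complex I, 874 CPM for complex III and 3689 CPM for complex V, because the total then includes genes left out of the test. For Ly6Clo minus Ly6Chi with IL-21, Ndufb11 turned from -0.57 to 0.35 without number 1 of Ly6Chi with IL-21, and ranged from -1.22 to 0.35 when each library was left out.

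In a fit with a replicate block, 0 members were called in each of the 7 comparisons, while the genes called overall came to 14 and 29 for IL-21 in Ly6Chi and Ly6Clo, 60 averaged, 1 for the difference, and 31, 41 and 132 for the subset without IL-21, with it and averaged. Deviations of same-numbered libraries correlated at 0.23 to 0.41 over 5256 genes between groups, and the labels do not say that a number marks a shared source.

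Depth and the number of libraries both limit these values. With 2 libraries a group and 3 counts worth 6.58 to 14.9 CPM, members near 30 CPM rest on few counts, and 9 members could not be tested. Differences under 2-fold in a single subset were often not resolved.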
